A study of Mus musculus with 29 samples.

Results

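The collagen genes of cultured postnatal mouse astrocytes were followed through forced expression of Neurog2 and Hmgb2. Members were the genes whose symbol is Col, a chain number, the letter a and a second number, and whose mean rlog value over all 29 libraries was at least 1. The rlog value is a log2 expression level that DESeq2 shrinks towards the gene's mean where reads are few, so a difference of 1 stands for 2 times the level, and changes of genes with few reads are understated. This rule kept 40 of 44 collagen genes, out of 15719 genes tested and 25239 in the table. Just inside the limit were Col25a1 (mean rlog 1.55) and Col6a4 (1.81), and just outside it were Col10a1 (0.73) and Col19a1 (0.34), while Col13a1 and Col6a6 lay lower still.

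Astrocytes came from the cortex of wild-type C57BL/6J mice at postnatal day 5 to 6 in one label and day 6 to 8 in another, and were grown for 10 days with bFGF alone or with EGF and bFGF, each factor at 10 ng/ml. Cells were then given MMLV retroviruses, which enter the genome of dividing cells, carrying Neurog2 with dsRED, Hmgb2 with GFP, both viruses, or a reporter alone as control, all driven by the CAG promoter. After 48 h the reporter-positive cells were sorted and their RNA sequenced, so each library is a sorted population of cells and not a single clone. In bFGF there were 3 Neurog2+Hmgb2, 4 Neurog2, 4 Hmgb2 and 3 control libraries, and in EGF+bFGF 3 Neurog2+Hmgb2, 3 Neurog2, 4 Hmgb2 and 5 control libraries. The labels do not say that the libraries of a group came from separate cultures or animals, so the p-values measure the spread between these libraries, which may be technical.

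Collagens are proteins of the extracellular matrix whose chains wind into a triple helix. Fibrillar collagens such as types I and III pack into the cable-like fibrils of connective tissue, basement membrane collagens such as type IV form the sheets on which epithelia, vessels and the astrocyte endfeet of the brain surface rest, and fibril-associated collagens sit on the surface of fibrils. Type VI forms beaded filaments and type VIII, a short chain collagen, forms hexagonal networks beneath endothelia. In the healthy brain, fibrillar collagen is largely restricted to meninges and vessel walls.

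Neurog2 rlog was 12.36 to 14.29 in the libraries given its virus, 9.35 to 11.47 in the Hmgb2 libraries and 7.74 to 8.22 in the control libraries, so the libraries labelled Hmgb2 also held more Neurog2 RNA than controls (by 2.66 ± 0.35 SE in EGF+bFGF, adjusted p = 0.000551, limma, and by 2.17 ± 0.39 SE in bFGF, adjusted p = 0.0961). Hmgb2 was 11.48 to 13.32 with its virus and 9.34 to 10.89 without it. Read totals are not known from rlog values, so the depth behind each value is unknown. Means over 12 astrocyte markers ran from 8.66 to 10.57, those over 17 microglia markers from 4.44 to 8.90 and those over 13 fibroblast and meningeal markers from 6.04 to 8.76. Of the defining markers, Slc22a6 and Slc6a13 (fibroblasts), Abcc9 and Kcnj8 (pericytes), Cldn5, Tie1, Emcn and Erg (endothelium) and Siglech (microglia) were below the limit of 1. In such bulk samples fewer cells of a type and less RNA per cell cannot be told apart.

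By class, the members comprised 11 fibrillar, 9 basement membrane, 8 fibril-associated, 5 beaded filament, 2 short chain and 3 transmembrane collagen genes and 2 others, Col26a1 and Col28a1. Every class spanned a wide range of levels, from a mean rlog of 1.82 to 14.14 among fibrillar, 1.86 to 12.42 among basement membrane and 3.09 to 9.83 among fibril-associated genes. The spread between libraries of a group also differed between genes, with a pooled SD of 1.58 for Col23a1, a transmembrane collagen, 1.23 for Col6a3, 1.05 for Col3a1, 0.95 for Col1a1 and 0.18 for Col4a3. For Col23a1 this spread came from single libraries. In EGF+bFGF, control replicate 4 was at 8.43, Neurog2 replicate 1 at 7.73 and Hmgb2 replicate 3 at 8.08. In bFGF, replicate 3 was at 8.97 in control, 9.07 in Hmgb2 and 8.34 in Neurog2. All other libraries were at 6.43 or below, including every Neurog2+Hmgb2 library. Whether these high libraries shared a preparation was not tested. Across the 8 groups, 5 of the 40 members differed by limma's F test at an adjusted p under 0.05, namely Col12a1, Col14a1, Col8a1, Col8a2 and Col28a1, where 3.91% of all genes tested did. The heat map of group means shows these genes and the fibrillar block.

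**Figure D1:**
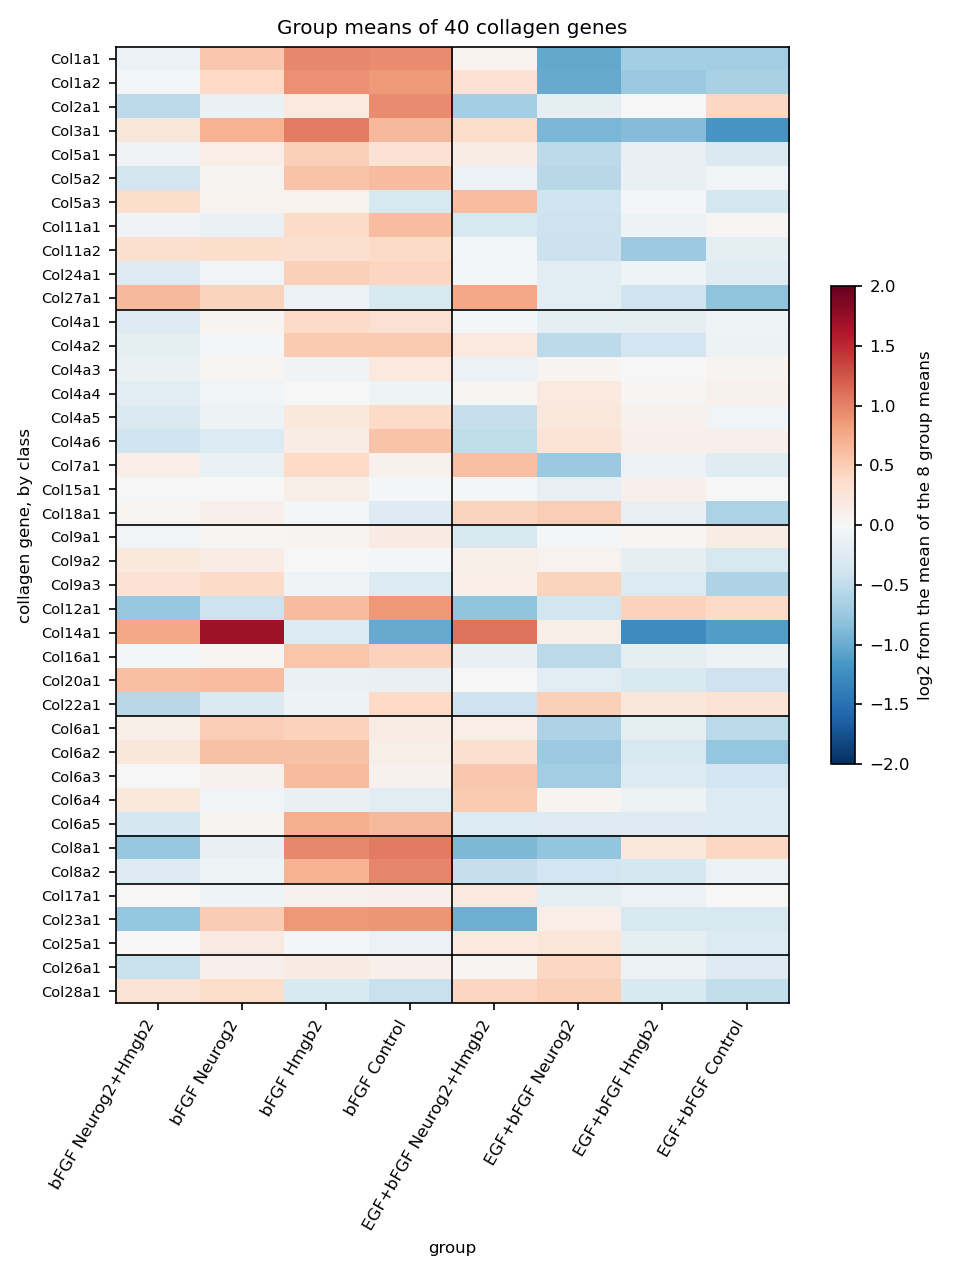
Mean rlog of each of 40 collagen genes (rows, by class) in each of 8 groups (columns), as the log2 distance from the mean of the 8 group means. Col12a1 is low in every group with Neurog2 virus, and Col14a1 is high and Col8a1 low in most of them. Col14a1 in EGF+bFGF Neurog2 and Col8a1 in bFGF Neurog2 are close to the mean. Col1a1, Col1a2 and Col3a1 are high in most bFGF groups.

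The effect of the Neurog2 virus was taken as the average of the 4 groups that received it (13 libraries) minus the average of the 4 that did not (16 libraries). Those 16 include 8 Hmgb2 libraries, whose Neurog2 rlog of 9.35 to 11.47 lay above the 7.74 to 8.22 of controls. Neurog2 itself differed by 4.10 in this average, against 4.63 to 5.82 in the comparisons with control. What this raised baseline does to the collagen differences was not tested. Collagen genes did not move as a block: 6 of 40 rose, where 8.54% of all genes tested rose, and 5 of 40 fell, where 6.74% of all genes fell. The median difference of the members was -0.08, and that of all genes was 0.01. Col14a1, Col27a1, Col28a1, Col20a1, Col6a4 and Col25a1 rose, while Col8a1, Col12a1, Col2a1, Col8a2 and Col5a2 fell. Without the 3 libraries highest in microglia markers 9 members were called, 8 of them among these 11, and the gene gained was Col18a1. With the microglia marker mean as a covariate 11 members were called, 7 of them among these 11, and Col18a1, Col9a3, Col11a1 and Col16a1 were gained. With the mean of fibroblast, meningeal, pericyte and smooth muscle markers as a covariate 13 members were called, 8 of them among these 11, and Col3a1, Col4a6, Col6a1, Col6a2 and Col6a3 were gained. The share of all genes called in these alternative fits was not computed, so the counts cannot be set against it. By class and with no covariate the calls were 1 higher and 2 lower of 11 fibrillar genes, 2 higher and 1 lower of 8 fibril-associated genes, 2 lower of 2 short chain genes, 1 higher of 5 type VI genes, 1 higher of 3 transmembrane genes, 1 higher of the 2 others (Col28a1) and none of 9 basement membrane genes.

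Col14a1 encodes type XIV collagen, a fibril-associated chain that binds the surface of type I fibrils, and lies on chromosome 15 (GRCm38, 55307750 to 55520803, plus strand). In bFGF its rlog was 5.79, 5.79 and 7.59 in Neurog2+Hmgb2 libraries and 7.55, 8.60, 6.60 and 6.45 in Neurog2 libraries, against 5.08, 5.06, 5.63 and 5.56 in Hmgb2 libraries and 4.31, 4.48 and 5.03 in control libraries. In EGF+bFGF it was 6.21, 6.68 and 7.18 in Neurog2+Hmgb2 libraries and 3.97, 6.38 and 6.82 in Neurog2 libraries, against 4.72, 4.48, 3.83 and 4.37 in Hmgb2 libraries and 4.17, 6.01, 4.16, 4.21 and 3.90 in control libraries. All 7 bFGF libraries with Neurog2 virus were above the 7 without it, whereas in EGF+bFGF 1 Neurog2 library lay at the control level and 1 control library stood well above the rest. The averaged difference was 1.83 ± 0.30 (SE, adjusted p = 0.000132, limma). That low Neurog2 library had a microglia marker mean of 4.55, against 7.47 and 6.23 in the 2 others of its group. It was also lowest in the mean of 8 neuron markers (6.47, against 7.58 and 7.42). The same held for fibroblast and meningeal markers (6.04, against 6.74 and 7.13). The high control library had a microglia marker mean of 8.64, against 4.44 to 6.35 in the other controls. Its neuron marker mean was 6.22, within the 5.96 to 6.27 of those controls. The averaged Neurog2 difference was above 0 for each of the 17 microglia markers, with a median of 1.28. It was above 0 for 7 of 8 neuron markers, with a median of 1.44. With the mean of the microglia markers as a covariate, the Col14a1 difference was 1.45 ± 0.31 (SE, adjusted p = 0.00297, limma). The gene also passed the test without the 3 libraries highest in that mean (adjusted p = 6.05e-05, limma).

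Col27a1, a fibrillar chain best known from cartilage, was also higher with the Neurog2 virus, and so was Col28a1, which encodes a collagen with von Willebrand factor A domains found around peripheral nerve glia. For Col27a1 the lowest, median and highest rlog were 5.70, 6.72 and 7.99 in the 13 libraries with Neurog2 virus and 5.45, 5.75 and 6.65 in the 16 without it. The ranges overlap, and the averaged difference was 0.82 ± 0.19 (SE, adjusted p = 0.00459, limma). For Col28a1 these values were 2.17, 2.84 and 3.55 with Neurog2 virus and 1.81, 2.05 and 2.50 without it, and the difference was 0.77 ± 0.12 (SE, adjusted p = 8e-05, limma). In EGF+bFGF the Col28a1 values of all 6 libraries with Neurog2 virus were above all 9 values of the libraries without it, whereas in bFGF the groups overlapped.

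The 3 other genes that rose differed by 0.31 to 0.50 on the log2 scale. Col20a1, a fibril-associated chain, had a lowest, median and highest rlog of 2.80, 3.76 and 5.29 with Neurog2 virus and 2.83, 3.29 and 3.78 without it (difference 0.50 ± 0.17 SE, adjusted p = 0.0463, limma). Col6a4, a type VI chain, had 1.59, 1.92 and 2.67 with the virus and 1.42, 1.63 and 1.84 without it (0.37 ± 0.09 SE, adjusted p = 0.00674). Col25a1, a membrane-spanning collagen made by neurons, had 1.28, 1.75 and 2.22 with the virus and 1.22, 1.40 and 1.83 without it (0.31 ± 0.09 SE, adjusted p = 0.0202). All 3 distributions overlapped. The Col20a1 call was lost in 20 of 29 fits that each left out 1 library (adjusted p 0.0033 to 0.0965 over these fits).

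Both chains of type VIII collagen fell. Col8a1 lies on chromosome 16 (57624258 to 57754737, minus strand). Its rlog in bFGF was 9.22, 9.46 and 10.06 in Neurog2+Hmgb2 libraries and 11.09, 10.03, 9.71 and 9.90 in Neurog2 libraries, against 12.52, 10.80, 10.65 and 11.20 in Hmgb2 libraries and 11.26, 12.40 and 10.45 in control libraries. In EGF+bFGF it was 9.34, 9.27 and 9.71 in Neurog2+Hmgb2 libraries and 10.04, 9.51 and 9.07 in Neurog2 libraries, against 10.58, 10.84, 10.68 and 10.08 in Hmgb2 libraries and 10.53, 11.01, 11.06, 10.59 and 10.52 in control libraries. In EGF+bFGF the libraries with and without Neurog2 virus did not overlap, and in bFGF 1 Neurog2 library reached the level of the others. The averaged difference was -1.30 ± 0.20 (SE, adjusted p = 9.17e-05, limma). Col8a2, whose product partners that of Col8a1 in Descemet's membrane of the eye, differed by -0.60 ± 0.16 (SE, adjusted p = 0.0111), with a lowest, median and highest rlog of 2.54, 2.97 and 3.67 with Neurog2 virus and 2.70, 3.26 and 4.64 without it. With the mean of the microglia markers as a covariate the Col8a2 call was lost (-0.47, adjusted p = 0.0878).

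Col12a1 encodes type XII collagen, a fibril-associated chain of tendon and other dense tissue, and lies on chromosome 9 (79598991 to 79718831, minus strand). Its rlog in bFGF was 8.46, 8.98 and 9.62 in Neurog2+Hmgb2 libraries and 9.57, 9.22, 9.78 and 8.91 in Neurog2 libraries, against 10.97, 9.87, 10.47 and 10.37 in Hmgb2 libraries and 10.96, 10.77 and 10.19 in control libraries. In EGF+bFGF it was 9.54, 8.41 and 8.98 in Neurog2+Hmgb2 libraries and 9.91, 9.29 and 9.04 in Neurog2 libraries, against 10.65, 9.69, 10.50 and 10.09 in Hmgb2 libraries and 10.30, 9.61, 10.14, 10.33 and 10.40 in control libraries. In bFGF all 7 libraries with Neurog2 virus were below the 7 without it, and in EGF+bFGF the ranges overlapped by 1 Neurog2 library. The averaged difference was -1.17 ± 0.16 (SE, adjusted p = 1.5e-05, limma). Col14a1 and Col12a1, both fibril-associated, thus moved in opposite directions in the same libraries.

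**Figure D2:**
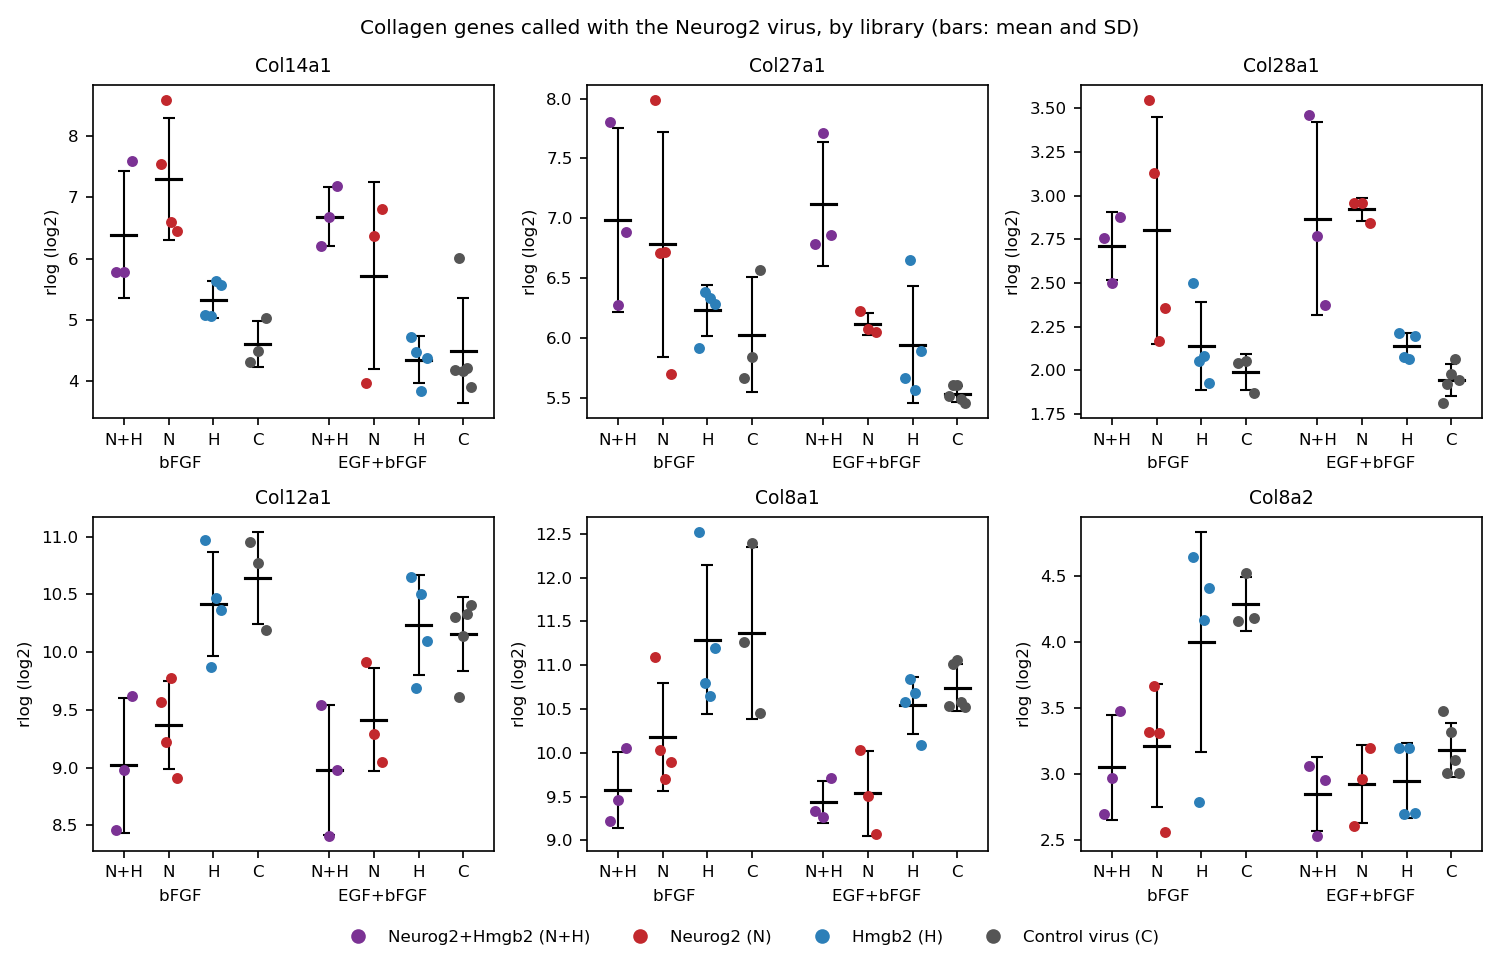
rlog (log2) of 6 collagen genes in each library, by group; N+H is Neurog2+Hmgb2, N is Neurog2, H is Hmgb2 and C is control, and bars give the mean and SD of 3 to 5 libraries. Col14a1 averaged 1.83 higher and Col12a1 1.17 lower with Neurog2 virus, and single libraries depart from their groups for Col14a1 and Col8a2.

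The 2 fibrillar genes that fell were Col2a1, the chain of cartilage collagen, and Col5a2, a chain of the type V collagen that starts type I fibrils. Col2a1 had a lowest, median and highest rlog of 4.05, 4.92 and 5.50 with Neurog2 virus and 4.27, 5.54 and 6.97 without it (difference -0.76 ± 0.25 SE, adjusted p = 0.0405, limma). Col5a2 had 10.03, 10.92 and 11.88 with the virus and 10.66, 11.30 and 12.27 without it (-0.49 ± 0.17 SE, adjusted p = 0.0473). Both calls stood near the threshold and were lost in 17 and 22 of 29 fits that each left out 1 library, with adjusted p from 0.00414 to 0.0895 and from 0.0187 to 0.105. The other 8 members called were kept in each of the 29 fits. Of 8 pericyte and smooth muscle markers tested, 7 lay below 0 with Neurog2 virus and 1 above, with a median of -0.55. Acta2, Tagln, Myh11 and Cnn1, 4 of the 8, were called lower, by 0.60 to 1.63 on the log2 scale. Pdgfrb, Rgs5, Notch3 and Des were not called. Des went the other way, with group means of 4.11 to 4.93 with the virus and 3.64 to 4.25 without it. The group means of the 8 markers together ran from 7.47 to 7.82 with the virus and from 8.09 to 8.45 without it. With the mean of fibroblast, meningeal, pericyte and smooth muscle markers as a covariate, Col8a1 differed by -1.11 and Col12a1 by -1.16, both still called, and Col5a2 differed by -0.22 (adjusted p = 0.0943) and Col2a1 by -0.54 (adjusted p = 0.111).

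The chains of collagen types I and III were not among the calls. With Neurog2 virus, Col1a1 differed by -0.27 ± 0.35 (SE, adjusted p = 0.660, limma), Col1a2 by -0.18 ± 0.34 (adjusted p = 0.764) and Col3a1 by 0.19 ± 0.38 (adjusted p = 0.788). Their standard errors were larger than the 0.16 of Col12a1, and in EGF+bFGF Hmgb2 libraries alone Col3a1 stood at 12.75, 13.08, 10.52 and 13.46. With the fibroblast and mural marker covariate, Col3a1 differed by 0.79 ± 0.23 (SE, adjusted p = 0.0171), so the call on Col3a1 depends on that covariate. Basement membrane genes lay from -0.45 ± 0.32 for Col4a6 to 0.54 ± 0.21 for Col18a1, the source of endostatin, with no gene called (SE, adjusted p = 0.381 and 0.0805). That count depends on the marker covariates and on the libraries used. Col18a1 differed by 1.001 ± 0.14 (SE, adjusted p = 5.7e-05, limma) with the microglia covariate, by 0.66 ± 0.19 (adjusted p = 0.0242) without the 3 libraries highest in microglia markers and by 0.50 ± 0.22 (adjusted p = 0.112) with the fibroblast and mural covariate, where Col4a6 differed by -0.81 ± 0.29 (adjusted p = 0.0476).

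The other members whose call depended on a covariate were fibril-associated, fibrillar and type VI genes. With the microglia covariate, Col9a3, a chain of the type IX collagen of cartilage, differed by 1.11 ± 0.25 (SE, adjusted p = 0.00557, limma), against 0.63 ± 0.28 (adjusted p = 0.132) without a covariate. Col11a1, a minor fibrillar chain, and Col16a1, a fibril-associated chain, differed by -0.63 ± 0.20 (adjusted p = 0.0405) and -0.49 ± 0.16 (adjusted p = 0.0484) with it. With the fibroblast and mural covariate, 4 of 5 type VI genes were higher with Neurog2 virus, against 1 of 5 without a covariate. Col6a1 differed by 0.44 ± 0.10 (adjusted p = 0.00315), Col6a2 by 0.68 ± 0.08 (adjusted p = 2.01e-06), Col6a3 by 0.72 ± 0.25 (adjusted p = 0.0448) and Col6a4 by 0.31 ± 0.09 (adjusted p = 0.0205). Without a covariate the 5 type VI genes ran from -0.42 to 0.37, with a median of 0.06. The covariate holds Acta2, Tagln, Myh11 and Cnn1, which were themselves lower with Neurog2 virus. The adjusted differences are therefore relative to a score made in part of genes that fell.

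**Figure D3:**
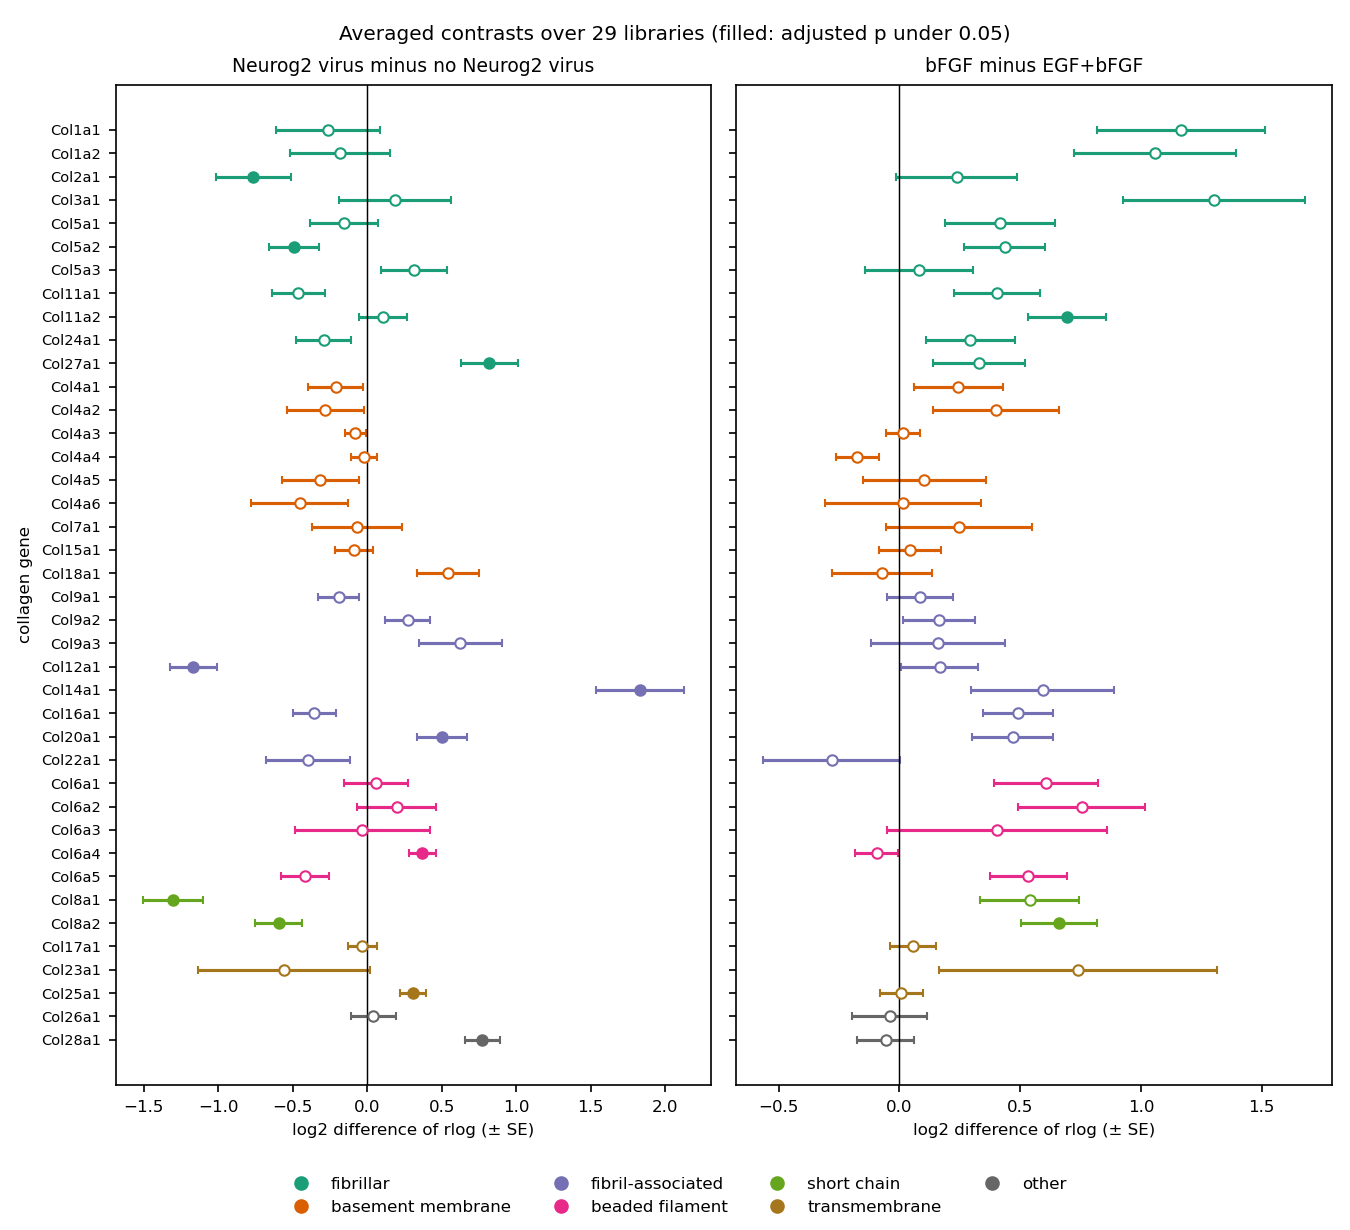
log2 difference of rlog with its SE for each of 40 collagen genes, coloured by class, for the Neurog2 virus (left; 13 libraries with it against 16 without) and for bFGF against EGF+bFGF (right; 14 against 15 libraries). Filled points passed an adjusted p of 0.05: 11 genes on the left, 6 higher and 5 lower, and 2 on the right, Col11a2 and Col8a2.

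The 250 bases before the transcription start are shown for the 4 called genes with the smallest adjusted p in each direction among those matched in RefSeq promoter windows (GRCm38.p6), 2 that fell and 2 that rose. Windows were matched by symbol for 31 of 40 members, at 34 starts. Capitals mark CANNTG, the E-box that basic helix-loop-helix factors such as Neurog2 can bind. It reads the same on both strands.
Col8a1: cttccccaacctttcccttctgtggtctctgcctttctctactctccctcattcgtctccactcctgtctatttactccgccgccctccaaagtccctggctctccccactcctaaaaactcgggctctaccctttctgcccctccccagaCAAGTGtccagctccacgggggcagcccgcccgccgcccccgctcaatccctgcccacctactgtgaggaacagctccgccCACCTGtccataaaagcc
Col8a2: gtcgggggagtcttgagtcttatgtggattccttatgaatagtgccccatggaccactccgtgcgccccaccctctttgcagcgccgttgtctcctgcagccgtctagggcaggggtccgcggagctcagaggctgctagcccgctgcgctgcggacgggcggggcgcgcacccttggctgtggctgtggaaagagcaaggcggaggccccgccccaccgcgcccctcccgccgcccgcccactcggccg
Col27a1: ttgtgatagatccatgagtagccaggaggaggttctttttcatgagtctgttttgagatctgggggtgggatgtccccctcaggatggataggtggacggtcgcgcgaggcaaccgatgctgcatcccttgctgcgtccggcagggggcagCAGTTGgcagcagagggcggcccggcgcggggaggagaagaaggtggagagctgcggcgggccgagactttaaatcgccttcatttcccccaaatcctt
Col28a1: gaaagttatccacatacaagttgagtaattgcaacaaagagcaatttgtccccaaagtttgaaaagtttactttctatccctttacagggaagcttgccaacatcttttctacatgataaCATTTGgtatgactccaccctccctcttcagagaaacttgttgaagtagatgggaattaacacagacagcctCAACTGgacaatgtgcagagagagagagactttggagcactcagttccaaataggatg
These stand at chr16:57754738-57754987 (minus strand), chr4:126286544-126286793 (plus), chr4:63215162-63215411 (plus) and chr6:8192618-8192867 (minus). Counted from the start, Col8a1 has the motif at -99 and -18, Col27a1 at -99, Col28a1 at -130 and -58, and Col8a2 has none. Among all members matched, 17 of 31 (54.8%) held it in these 250 bases, against 66.2% of all 32851 windows. It was in 2 of the 5 matched genes that rose and in 1 of the 2 that fell. The narrower CAGATG, read on both strands, was in 3 members and in 14.4% of all windows, and in none of the 4 printed. These matches describe the sequence only.

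Taken by single comparison within a culture, few members were called, and the same control libraries serve each comparison of a culture. In EGF+bFGF, Neurog2 against control called 1 member higher, Col28a1 (0.98 ± 0.23 SE, adjusted p = 0.0259, limma), and none lower, where 1.35% of all genes were higher and 0.229% lower. Its rlog was 2.96, 2.96 and 2.84 in Neurog2 libraries, against 1.81, 1.92, 1.98, 2.06 and 1.94 in control libraries, so these groups did not overlap. The call was lost without any 1 of the 3 Neurog2 libraries (adjusted p 0.0829, 0.118 and 0.110 without replicates 1, 2 and 3) and without control replicates 1 (0.0601) and 5 (0.0501). The member with the largest difference there, Col14a1, was not called (1.23 ± 0.57 SE, adjusted p = 0.377), and the one with the lowest was Col8a1 (-1.20 ± 0.39, adjusted p = 0.147).

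In EGF+bFGF, Neurog2+Hmgb2 against control called 4 members higher, where 1.46% of all genes were higher, and 1 lower, where 0.522% were lower. Higher were Col14a1 (2.20 ± 0.57 SE, adjusted p = 0.0432, limma), Col27a1 (1.59 ± 0.37, adjusted p = 0.0214), Col28a1 (0.92 ± 0.23, adjusted p = 0.0339) and Col6a4 (0.80 ± 0.17, adjusted p = 0.0140), and lower was Col12a1 (-1.18 ± 0.31, adjusted p = 0.0426). Col27a1 stood at 6.79, 7.71 and 6.86 in Neurog2+Hmgb2 libraries, against 5.51, 5.60, 5.60, 5.49 and 5.45 in control libraries, with no overlap. Col8a1, the lowest member, differed by -1.30 ± 0.39 (adjusted p = 0.0955). Leaving out 1 library at a time ended most of these calls. Col27a1 was lost without Neurog2+Hmgb2 replicates 2 (adjusted p = 0.114) and 3 (0.0704), and Col6a4 without replicates 1 (0.0927) and 3 (0.198). Col14a1 was kept only without control replicate 2 (adjusted p = 0.0105, up to 0.297 otherwise), Col12a1 only without control replicate 2 or Neurog2+Hmgb2 replicate 1 (up to 0.208 otherwise) and Col28a1 only without control replicate 2 or Neurog2+Hmgb2 replicate 3 (up to 0.196 otherwise).

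In bFGF, Neurog2 against control called Col14a1 higher (2.69 ± 0.60 SE, adjusted p = 0.0439, limma) and no member lower, where 0.337% of all genes were higher and 0.0127% lower. This call was kept only without Neurog2 replicate 3 (adjusted p = 0.0251), and was lost without each other library of the comparison (0.0534 to 0.236). Neurog2+Hmgb2 against control in bFGF called no member higher and 2 lower, where 1.03% of all genes were higher and 0.452% lower. Col12a1 differed by -1.62 ± 0.34 (SE, adjusted p = 0.0144) and Col8a1 by -1.79 ± 0.44 (adjusted p = 0.0375), with no overlap between groups for either. Col12a1 was lost without control replicates 1 (adjusted p = 0.0950) and 2 (0.0819) and Neurog2+Hmgb2 replicates 1 (0.0619) and 2 (0.0648), and Col8a1 was kept only without control replicate 3 (0.0142, up to 0.223 otherwise). Col14a1 had the largest difference among members, 1.78 ± 0.64, and was not called (adjusted p = 0.178).

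No collagen gene was called for Hmgb2. Hmgb2 against control called 0 of 40 members in EGF+bFGF, where 0.0127% of all genes were called. It called 0 of 40 in bFGF, where 0.00636% were called. No member had an unadjusted p under 0.05 in either culture (limma). The 2 genes called in EGF+bFGF were Neurog2 (2.66) and Hmgb2 (2.22), and the 1 called in bFGF was Hmgb2 (2.15). Both comparisons also carry the higher Neurog2 RNA of the Hmgb2 libraries. Members ran from -0.53 (Col11a2) to 0.47 (Col18a1) in EGF+bFGF and from -0.75 (Col2a1) to 0.73 (Col14a1) in bFGF. Averaged over virus and culture, Hmgb2 called 0 members and 0.0127% of all genes, again Neurog2 and Hmgb2. There, 4 members had an unadjusted p under 0.05, and members ran from -0.61 (Col23a1) to 0.52 (Col7a1). Added to Neurog2, Hmgb2 called only its own gene in each culture, 0.00636% of all genes. Among members it called 0 in EGF+bFGF and 0 in bFGF, with 3 and 0 at an unadjusted p under 0.05. The largest of these differences in EGF+bFGF were 1.34 ± 0.65 (SE, adjusted p = 0.802) for Col7a1, the anchoring fibril chain of skin, and 1.29 ± 0.73 (adjusted p = 0.802) for Col1a2, whose values in Neurog2+Hmgb2 libraries, 13.19, 13.49 and 14.61, lay above the 11.49, 13.04 and 12.88 of Neurog2 libraries. The lowest member there was Col23a1 (-1.12 ± 1.24 SE), and in bFGF members ran from -1.28 (Col23a1) to 0.29 (Col5a3). Both Col23a1 differences hold 1 high Neurog2 library. It was at 7.73 against 4.94 and 4.80 in EGF+bFGF, and at 8.34 against 4.74, 6.43 and 5.23 in bFGF. These libraries also enter the averaged -0.61. None of these differences passed the adjusted threshold with this spread between libraries, and the smallest detectable difference was not computed.

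Between bFGF and EGF+bFGF cultures, most collagen genes lay on the bFGF side, and few of these differences passed the test. Averaged over the 4 viruses, 2 of 40 members were higher, where 0.757% of all genes were, and 0 were lower, where 0.426% of all genes were (limma). Of the 40, 34 lay above 0, with a median of 0.27, where 52.3% of all genes lay above 0, with a median of 0.01. All 11 fibrillar genes were above 0, from 0.08 for Col5a3 to 1.30 for Col3a1, and the lowest member was Col22a1, a fibril-associated chain, at -0.28. Also above 0 were 7 of 9 basement membrane genes (median 0.04), 7 of 8 fibril-associated genes (median 0.16), 4 of 5 type VI genes (median 0.53) and both short chain genes.

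Col11a2, a minor fibrillar chain of cartilage, and Col8a2 were the genes called. Col11a2 had a lowest, median and highest rlog of 4.51, 5.53 and 6.17 in 14 bFGF libraries and 4.16, 4.79 and 5.62 in 15 EGF+bFGF libraries (difference 0.69 ± 0.16 SE, adjusted p = 0.0396, limma). Col8a2 had 2.57, 3.58 and 4.64 in bFGF and 2.54, 3.01 and 3.48 in EGF+bFGF (0.66 ± 0.16 SE, adjusted p = 0.0396). The 3 control libraries in bFGF, at 4.16, 4.52 and 4.18 for Col8a2, were above the 5 in EGF+bFGF, at 3.48, 3.01, 3.32, 3.11 and 3.01. Each of the 2 calls was lost in 19 of 29 fits that left out 1 library (adjusted p 0.00706 to 0.0951 for Col11a2 and 0.00219 to 0.1001 for Col8a2), and over these fits the number of members called ran from 0 to 6.

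The largest differences between cultures were those of type I and III chains, which missed the threshold. Col3a1, the chain of the thin fibrils of vessels and soft tissue, had a lowest, median and highest rlog of 12.29, 14.56 and 14.87 in bFGF and 10.52, 12.95 and 14.33 in EGF+bFGF (1.30 ± 0.38 SE, adjusted p = 0.0814, limma). Col1a1, the main chain of type I collagen, had 13.16, 15.09 and 15.96 in bFGF and 11.79, 13.83 and 14.87 in EGF+bFGF (1.17 ± 0.35 SE, adjusted p = 0.0902). Col1a2 differed by 1.06 ± 0.34 (adjusted p = 0.116), and the type VI chains Col6a1 and Col6a2 by 0.61 ± 0.22 and 0.76 ± 0.26 (adjusted p = 0.159 and 0.153). In the control libraries alone, where 0% of all genes and 0 of 40 members were called and 6 members had an unadjusted p under 0.05, 38 of 40 members lay above 0, with a median of 0.47, where 53% of all genes did, and the lowest member was Col4a4 at -0.17. Col3a1 was at 12.83, 14.57 and 14.55 in bFGF control libraries and at 12.03, 12.72, 13.05, 10.59 and 12.35 in EGF+bFGF control libraries, so the ranges met, and the difference was 1.83 ± 0.73 (adjusted p = 0.728).

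Markers of fibroblasts and meninges lay on the same side as these genes. All 13 of those tested were above 0, with a median difference of 0.67, and Dcn (1.84) and Crabp2 (1.27) were called. In the same contrast, 15 of 17 microglia markers lay above 0 with a median of 0.79 and none called, and 7 of 9 oligodendrocyte lineage markers lay above 0 with a median of 0.65 and Pdgfra called (1.42, adjusted p = 0.0417, limma). The mean of the fibroblast and meningeal markers ran from 7.23 to 8.40 in the 3 bFGF control libraries and from 6.20 to 7.80 in the 5 EGF+bFGF control libraries. The 3 libraries lowest in Col1a1 and Col3a1 were also the 3 lowest in these markers. In EGF+bFGF, Neurog2 replicate 1 had Col1a1 at 11.81 and a marker mean of 6.04, Hmgb2 replicate 3 had 11.79 and 6.04, and control replicate 4 had 11.95 and 6.20. These libraries were also high in Col23a1, whereas the bFGF libraries high in Col23a1 had Col1a1 at 14.70 to 15.20. With the fibroblast and mural marker covariate the culture difference of Col3a1 was 0.28 ± 0.25 (SE, adjusted p = 0.498) and that of Col1a1 0.19 ± 0.22 (adjusted p = 0.591), while that of Col11a2 was 0.82 ± 0.19 (adjusted p = 0.0481) and that of Col8a2 0.43 ± 0.17 (adjusted p = 0.146). Without the 3 libraries highest in microglia markers, Col3a1 (1.48, adjusted p = 0.0453) and Col1a1 (1.31, adjusted p = 0.0462) were called, and Col11a2 was not (0.58, adjusted p = 0.0553).

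**Figure D4:**
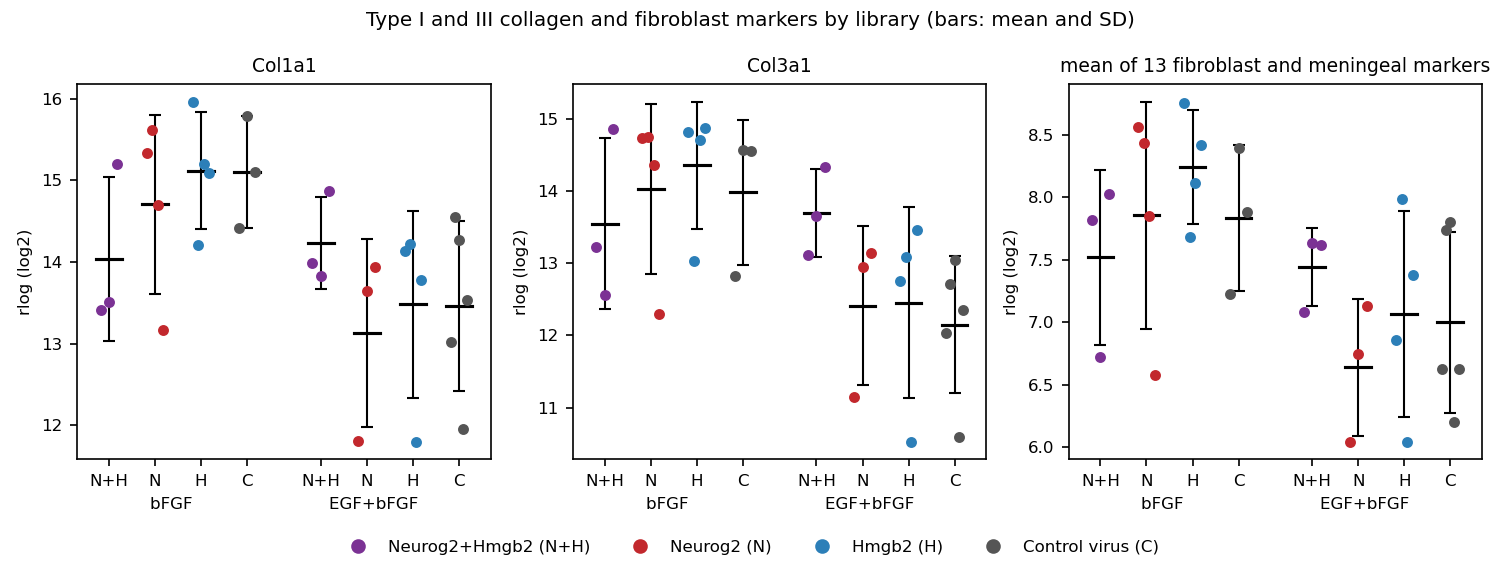
rlog (log2) of Col1a1 and Col3a1, and the mean rlog of 13 fibroblast and meningeal markers, in each library by group, with mean and SD of 3 to 5 libraries. In EGF+bFGF the same Neurog2, Hmgb2 and control libraries are lowest in their groups in all 3 panels, and Hmgb2 replicate 3 is at 11.79 for Col1a1, 10.52 for Col3a1 and 6.04 for the markers.

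Whether the response to Neurog2 differed between cultures was tested as the averaged Neurog2 effect in bFGF minus that in EGF+bFGF. No member was called, nor was any of the 15719 genes tested (0% called), and 3 members had an unadjusted p under 0.05 (limma). The point estimates lay above 0 for 5 of 40 members, with a median of -0.30, where 50% of all genes lay above 0 with a median of 0.00. They ran from -1.13 ± 0.75 (SE) for Col3a1, -1.03 ± 0.67 for Col1a2 and -0.95 ± 0.70 for Col1a1 to 0.51 ± 0.34 for Col20a1, with adjusted p of 1.00 for each. For Col14a1 and Col12a1 they were 0.09 ± 0.59 and -0.34 ± 0.32. The 13 fibroblast and meningeal markers had a median of -0.44 in the same contrast, 11 of them below 0.

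The enzymes and partners of collagen were read from lists of 6 to 15 genes. With Neurog2 virus, 1 of 15 genes of hydroxylation and glycosylation was higher (Ppib, a prolyl isomerase, 0.36) and 2 were lower (P4ha3, a prolyl 4-hydroxylase subunit, -0.60, and P3h2, a prolyl 3-hydroxylase, -0.59). Of 11 chaperone and secretion genes, only Creb3l1, a transcription factor of the secretory pathway, was called (0.63). Of 11 partners of fibril assembly, Thbs1 (-1.43) and Fn1, which encodes fibronectin (-0.85), were lower. Also lower were the procollagen protease Tll1 (-1.42, 1 of 7 in its list), the cross-linking enzyme Loxl4 (-0.69, 1 of 6), the metalloproteinase inhibitor Timp3 (-0.89, 1 of 12) and 3 of 10 receptors, the integrin chains Itga1 (-0.79), Itga2 (-0.75) and Itgb1 (-0.57), while Lair1, a collagen receptor of immune cells, was higher (1.03). Over these lists of 15, 11, 11, 7, 6, 12 and 10 genes, 3 genes rose and 10 fell, where 8.54% and 6.74% of all genes did.

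In the single comparisons, Creb3l1 was higher (1.32 ± 0.30 SE, adjusted p = 0.0185) and Timp3 lower (-1.17 ± 0.31, adjusted p = 0.0436) in Neurog2+Hmgb2 against control in EGF+bFGF, and Fn1 was lower (-1.48 ± 0.33, adjusted p = 0.0210, limma) in bFGF. Between cultures, 5 genes of the lists were higher in bFGF and none lower: Lox, the lysyl oxidase that cross-links fibrils (1.37), Dcn, the fibril-coating proteoglycan decorin and also a fibroblast marker (1.84), the collagenases Mmp8 (0.50) and Mmp13 (1.62), and Itga11, a fibrillar collagen receptor chain (0.87), each at an adjusted p of 0.0188 to 0.0398, where 0.757% of all genes were higher and 0.426% lower. In the lists of hydroxylation and of chaperones, 14 of 15 and 10 of 11 genes lay above 0 without a call, where 52.3% of all genes lay above 0.

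Chains that assemble into the same molecule were compared through the deviations of the 29 libraries from their group means, in 10 pairs. For 7 pairs the deviations moved together by a permutation test within groups with 100000 resamples, 2-sided, adjusted over the 10 pairs. Col1a1 and Col1a2, the chains of type I collagen, had r = 0.97 and rho = 0.93 (p = 1e-05 for each, the smallest the resamples can give, adjusted p = 1.67e-05 and 2.5e-05), and r = 0.97 without the 2 libraries farthest from the median of Col1a1. Col4a1 and Col4a2, the common type IV pair, had r = 0.95 and rho = 0.95 (adjusted p = 1.67e-05 and 2.5e-05, permutation), Col4a5 and Col4a6 r = 0.97 and rho = 0.93, and Col6a1 and Col6a2 r = 0.95 and rho = 0.93, at the same adjusted p, and each had an r of 0.94 to 0.96 without 2 libraries.

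Lower values were found for Col5a1 and Col5a2 (r = 0.86, rho = 0.80, adjusted p = 1.67e-05 and 0.000117, permutation, r = 0.79 without 2 libraries), Col6a1 and Col6a3 (r = 0.78, rho = 0.79, adjusted p = 1.67e-05 and 6e-05, 0.75 without 2) and Col11a1 and Col11a2 (r = 0.66, rho = 0.64, adjusted p = 0.00551 and 0.00291, permutation, 0.52 without 2). No relation passed the test for Col8a1 and Col8a2 (r = 0.38, rho = 0.32, adjusted p = 0.217 and 0.193, permutation, 0.22 without 2), for Col9a2 and Col9a3 (r = 0.26, rho = 0.22, adjusted p = 0.305 and 0.328, 0.02 without 2) or for Col4a3 and Col4a4 (r = 0.24, rho = 0.24, adjusted p = 0.308 and 0.313, 0.23 without 2). The type VIII chains, which both fell with Neurog2 virus, were thus among the pairs that did not pass this test within groups. The libraries share a main axis that holds 45.4% of all deviations from group means. Among all genes tested, Col1a2 ranked first by r with Col1a1, ahead of Col3a1 and Lox, and Col4a2 first with Col4a1. Col4a6 ranked 4th with Col4a5 and Col6a2 2nd with Col6a1, but Col5a2 ranked 138th with Col5a1, Col6a3 168th with Col6a1 and Col11a2 202nd with Col11a1.

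**Figure D5:**
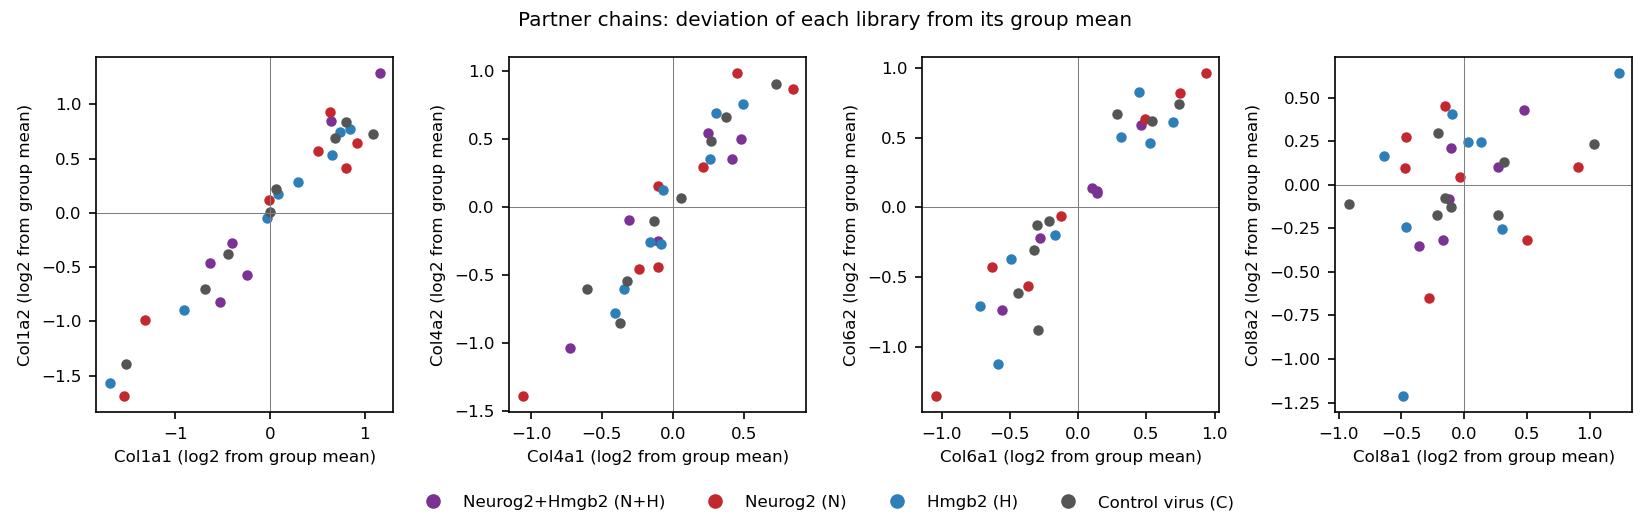
Deviation of each of 29 libraries from its group mean (log2) for 4 pairs of chains, with the first chain on the x axis and the second on the y axis, coloured by virus. The points follow a line for Col1a1 and Col1a2 (r = 0.97), Col4a1 and Col4a2 (0.95) and Col6a1 and Col6a2 (0.95), and scatter for Col8a1 and Col8a2 (0.38).

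Some pairs are also neighbours in the genome. Col4a1 (chromosome 8, minus strand, start 11312826) and Col4a2 (plus strand, start 11312805) are read outwards from starts 21 bases apart on opposite strands, and their exons share 22 bases in the annotation, 0.295% of the Col4a1 and 0.332% of the Col4a2 exon length. The library kit does not mark strand, so reads in those bases cannot be assigned to one gene. The starts of Col4a5 and Col4a6 on chromosome X lie 1343 bases apart, also outwards. Col4a4 (chromosome 1, minus strand, start 82586849) and Col4a3 (plus strand, start 82586921) are read outwards too. That pair did not pass the correlation test (r = 0.24). Over all members, 11 of 40 shared exon bases with another annotated gene, at most 6.07% of the exon length, for Col9a3 with Tcfl5.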

How the data were processed

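Sorted cells were profiled by SMART-Seq v4 RNA-seq, whose libraries do not mark strand. The authors aligned paired reads to mm10 with STAR, counted them with HTSeq 0.9.1 on GENCODE M25 and deposited DESeq2 rlog values (1.36.0 in the submitters' notes), which are log2 expression of 25239 genes in 29 libraries, normalised for library size. Counts are not used here, so depth is unknown and no count test was run.

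Genes with a mean rlog of at least 1 over all libraries (15719) were fitted with limma 3.58.1 in R 4.3.3, with a mean for each of 8 groups, 21 residual degrees of freedom and eBayes with an intensity trend. P-values were adjusted by Benjamini-Hochberg over all genes tested, and a call was an adjusted p under 0.05. Averaged comparisons weight groups equally. Named collagens were those called, the highest and lowest difference of each comparison, those next to the rlog limit and the partner chains, and of the pathway lists up to 4 called genes per list and comparison. Other collagens, such as Col3a1, Col16a1, Col18a1 and those gained with a covariate, were chosen after their values were seen. The members and lists were chosen with earlier results of these data known, and the marker covariates and the fit without the 3 libraries highest in microglia markers serve as alternatives, the last chosen after seeing the data. Scripts were tested on simulated data. Same-numbered libraries deviated together (every correlation over 0.1, from 0.17 to 0.35) in 1 of 9 comparisons, Neurog2+Hmgb2 against Neurog2 in EGF+bFGF, where 0 members were called with and without the replicate block. Promoter windows came from RefSeq, and exon coordinates from GENCODE M21 (GRCm38).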

Additional observations from a re-analysis of the deposited data

Results flagged for a closer look

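Among 17 of the named collagen genes in the 4 groups of 4 or 5 libraries, 4 of 68 sets of values held a library far from the rest of its group, where chance gives about 1 in 20. Col23a1, the member with the largest spread, was not among these 17. In EGF+bFGF it stood at 8.43 in control replicate 4, against 4.94 in the next highest control. Hmgb2 replicate 3 was at 8.08, against 4.77 in the next highest of its group. Col14a1 stood at 6.01 in EGF+bFGF control replicate 2, against 4.21 in the next highest control, and the microglia marker mean of that library was 8.64, against 6.35 in the next highest control. Col11a2 stood at 4.45 in EGF+bFGF control replicate 3, against 5.02 in the next lowest control. Col3a1 stood at 12.29 in bFGF Neurog2 replicate 4, against 14.36 in the next lowest, and that library had a fibroblast and meningeal marker mean of 6.58 and a microglia marker mean of 8.90. Col3a1 also stood at 13.04 in bFGF Hmgb2 replicate 2, against 14.70 in the next lowest, where the fibroblast and meningeal marker mean was 7.68, the lowest of its group. The part of other cells in these values was not tested.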

How the results depend on the processing

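Over 706 alternative fits of the 22 named results, 502 kept their call, 204 lost it and 0 changed direction. The counts that follow cover members only, and the share of all genes called in each alternative was not computed. With Neurog2 virus averaged, 11 collagens were called, and 8 to 12 when 1 library was left out. There were 6 with a mean rlog of at least 4, a filter that removes Col28a1, Col20a1, Col6a4, Col25a1 and Col8a2 before testing. There were 3 with a fold change above 2 also required, which keeps calls of the main fit and is not a separate test. The count of 5 for any difference among the 8 groups became 4 to 8 when 1 library was left out, 3 with a mean rlog of at least 4 and 24 with array weights. The 2 calls for bFGF against EGF+bFGF became 0 to 6 when 1 library was left out, 0 with no filter and 1 with a mean rlog of at least 4. They became 1 with quantile normalisation, 18 with array weights and 0 with a fold change above 2 also required. They became 1 with the fibroblast and mural covariate and 1 with the replicate block.

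Single comparisons moved more. Neurog2 against control in EGF+bFGF (1 call) had 0 to 1 when 1 library was left out, 0 with a mean rlog of at least 4 or a fold above 2, 2 with only the groups compared, 2 with either marker covariate, 2 with the replicate block within culture and 6 with array weights. Neurog2+Hmgb2 against control in EGF+bFGF (5 calls) had 1 to 5 when 1 library was left out, 2 with no filter, quantile normalisation, only the groups compared, the replicate block or without the 3 libraries highest in microglia markers, and 3 with a mean rlog of at least 4, a fold above 2 or the replicate block within culture. Neurog2 against control in bFGF (1 call) had 0 to 3 when 1 library was left out, 0 with no filter, only the groups compared, the replicate block within culture or the microglia covariate, 2 with the fibroblast and mural covariate and 4 with array weights. Neurog2+Hmgb2 against control in bFGF (2 calls) had 0 to 3 when 1 library was left out, 1 with no filter or the microglia covariate, 0 with only the groups compared, 5 with the fibroblast and mural covariate and 10 with array weights. Array weights also gave 2 for Neurog2+Hmgb2 against Neurog2 in bFGF and 1 for Hmgb2 averaged, against 0 each. The cause of these changes was not tested, and the array weights stopped before converging. The replicate numbers met the rule of every correlation over 0.1 in 1 comparison only. Single same-numbered pairs ran from -0.61 to 0.81 over the 9 comparisons checked. Both ends were replicate 3 of Hmgb2 and control, the low one in EGF+bFGF and the high one in bFGF. The main fit takes no account of such pairs. The labels do not say whether libraries of different groups shared a preparation, under the same or another number. The block within culture was not run between cultures or over all 8 groups, since it cannot be separated from culture. No scaling moved the median of all genes by over 0.1. Depth is unknown and limits genes with low rlog values.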
